A study of Mus musculus with 2 samples.

Results

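The regions described here are stretches of mouse promoter DNA at which chromatin precipitated with an antibody against CREM gave more than 4 times the microarray signal of chromatin precipitated with goat IgG. A window was 3 neighbouring probes whose starts lay at most 500 bp apart, and it was kept where its median log2 ratio of CREM to IgG signal was 2 or more and each of its probes stood well above background in the CREM as in the IgG channel. Kept windows that shared a probe were merged, which gave 454 regions, 192 on array 1 and 262 on array 2, from 904 windows among 196565 that could be measured. On array 1, 382 of 96306 measurable windows passed, or 0.397%, and 379 windows passed the same threshold in the opposite direction, with more IgG than CREM signal, or 0.394%. On array 2, 522 of 100259 windows passed, or 0.521%, and 539 passed on the IgG side, or 0.538%. The regions were thus chosen by the measured ratio itself, so their ratios are given as a description and support no test. The number of regions cannot be read as an excess over the IgG side, where 514 regions formed (222 and 292), and the 2 sets are compared here by position and sequence, which the ratio did not use.

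The chromatin came from germ cells of adult male C57BL/6 mice, pooled from several testes, fixed with formaldehyde and sheared by sonication. DNA recovered with the CREM antibody was labelled with Cy5 and DNA recovered with goat IgG with Cy3, and the 2 were hybridised together. A promoter set spread over 2 Agilent arrays was used, with 1 hybridisation per array, no repeat and no dye swap. The 2 arrays carry different parts of the genome and are not replicates of each other, and dye and antibody cannot be told apart. No value therefore has a replicate error. The only repeated measurements are control spots, whose log2 ratios varied with a median SD of 0.14 on array 1 and 0.12 on array 2, over 17 control probes on each, and this covers the spread between spots and not that between precipitations. The recovered DNA carries no marker that would show which germ cells it came from.

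CREM is a transcription factor of the CREB family. It binds the cAMP response element, or CRE, a palindrome that reads the same on both strands, and also single copies of its core. In testis an activating form of CREM accumulates in haploid round spermatids, and mice without Crem fail to complete the development of spermatids into sperm.

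The CRE could be looked for in the promoters beside the regions, and the promoters that carry it are shown first because, of the motifs counted, this element had the largest ratio between its share here and its share in other measured promoters. Transcription start sites were placed on the arrays by exact matches of probe sequences to RefSeq promoter sequences (build GRCm38.p6), which run from 250 bases before to 50 after each start. Each line gives the coding strand of a promoter upstream of its start, written 5′ to 3′, with the letters TGACGTCA in capitals. The first 10 are those of the highest regions whose stretch lay outside every RefSeq gene span, and Suv39h2 and Izumo1 were added after their values were seen because both genes are known for roles in the male germ line.
Ormdl3: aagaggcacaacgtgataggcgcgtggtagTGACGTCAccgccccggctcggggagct
Snapc5: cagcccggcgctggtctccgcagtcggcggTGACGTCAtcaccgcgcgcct
Zwint: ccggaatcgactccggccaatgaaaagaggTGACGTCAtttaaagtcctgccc
Dhx36: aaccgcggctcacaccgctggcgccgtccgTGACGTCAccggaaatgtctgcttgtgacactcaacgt
Pet100: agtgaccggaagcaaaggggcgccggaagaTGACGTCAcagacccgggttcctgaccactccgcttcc
Ddx49: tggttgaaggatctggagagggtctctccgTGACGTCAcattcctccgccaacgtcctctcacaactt
Nup133: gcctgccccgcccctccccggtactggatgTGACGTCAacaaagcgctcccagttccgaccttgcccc
Ranbp6: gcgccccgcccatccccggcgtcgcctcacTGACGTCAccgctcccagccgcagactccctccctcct
Dapk3: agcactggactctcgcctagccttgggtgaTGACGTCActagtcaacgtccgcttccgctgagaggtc
Zfand2a: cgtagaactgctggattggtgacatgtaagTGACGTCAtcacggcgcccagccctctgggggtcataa
Suv39h2: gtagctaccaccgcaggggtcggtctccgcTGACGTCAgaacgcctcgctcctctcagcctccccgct
Izumo1: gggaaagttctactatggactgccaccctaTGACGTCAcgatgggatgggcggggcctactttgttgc

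On GRCm38.p6 the Ormdl3 stretch is chr11:98587246-98587303 on the minus strand, and its CRE begins at -28, counted in bases from the start site with minus for upstream. Ormdl3 encodes a brake on serine palmitoyltransferase, which opens sphingolipid synthesis, and the region beside it reached a window median of 3.37. Snapc5, a subunit of the complex that starts transcription of small nuclear RNA genes, has its element at -21 in chr9:64179246-64179296 on the plus strand, beside a region of 3.17. In the promoter of Zwint, a kinetochore protein, the element lies at -23 in chr10:72654793-72654845 on the plus strand, and the region beside it reached 2.91. In these promoters the element lies close to the start site. In the next group it lies further upstream. For Dhx36, a helicase that unwinds G-quadruplexes, it begins at -106 in chr3:62507057-62507124 on the minus strand, beside a region of 2.86. Pet100 (chr8:3621428-3621495, plus strand), an assembly factor of cytochrome c oxidase, and Ddx49 (chr8:70302527-70302594, minus strand), an RNA helicase, both carry it at -93, beside regions of 2.81 and 2.80. In the promoter of Nup133, a scaffold protein of the nuclear pore, it begins at -124 in chr8:123949352-123949419 on the minus strand, beside a region of 2.77.

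Ranbp6, an importin-like protein, carries the element at -44 in chr19:29812981-29813048 on the minus strand, beside a region of 2.73. Dapk3, a serine/threonine kinase, carries it at -139 in chr10:81182838-81182905 on the plus strand, beside a region of 2.72, and Zfand2a, a stress-induced zinc finger protein, at -125 in chr5:139484579-139484646 on the minus strand, beside a region of 2.63. The last 2 elements are the farthest from a start among those printed. Suv39h2, a histone H3 lysine methyltransferase abundant in testis, has its element at -85 in chr2:3475034-3475101 on the minus strand, and its region reached 2.34. Izumo1, the sperm protein needed for fusion with the egg, has it at -96 in chr7:45621685-45621752 on the plus strand, and its region reached 2.12, the lower quartile of the set. A run of these letters is a description of the sequence and does not show that CREM sits on it.

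A full CRE, TGACGTCA, stood in 82 of the 326 promoters whose start was the nearest one within 1000 bp of a region, or 25.2% (95% Wilson interval 20.8 to 30.1). Among all 13426 promoters with a measurable window that near, 357 held it, or 2.66% (2.40 to 2.94), and among all 32851 promoters in the RefSeq set it was found in 588, or 1.79%. The core, TGACG or CGTCA on the strand read, which searches both strands and lies inside every full element, stood in 257 of the 326 region promoters, or 78.8% (74.1 to 82.9), against 27.5% of promoters near a measurable window and 20.8% of all promoters. Thus 175 region promoters (53.7%) had a core without the full palindrome, and 69 (21.2%) had neither. The intervals cover counting error only. Promoters beside IgG-side regions held the full element in 13 of 352 cases, or 3.69%, and the core in 36.4%. The 2 arrays both showed the high share, with 45 of 139 region promoters (32.4%) on array 1 and 37 of 187 (19.8%) on array 2.

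The share of promoters with a CRE followed the ratio below the 4-fold threshold as well as above it. When every promoter was placed by the highest window within 1000 bp of its start, the full element stood in 1.11% of the 4126 promoters whose highest window was under 0 and in 0.797% of the 4643 between 0 and 0.5. It stood in 1.6% of the 2562 between 0.5 and 1, in 5.99% of the 1202 between 1 and 1.5, and in 13.8% of the 557 between 1.5 and 2. Past the threshold it stood in 19.4% of the 237 promoters between 2 and 2.5 and in 38.4% of the 99 at 2.5 or more. The core went the same way, from 19.0% between 0 and 0.5 to 62.7% between 1.5 and 2 and 85.9% at 2.5 or more. The 4-fold line thus lies within a range over which the share climbed, and promoters just under it held the element more often than those further down.

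**Figure D1:**
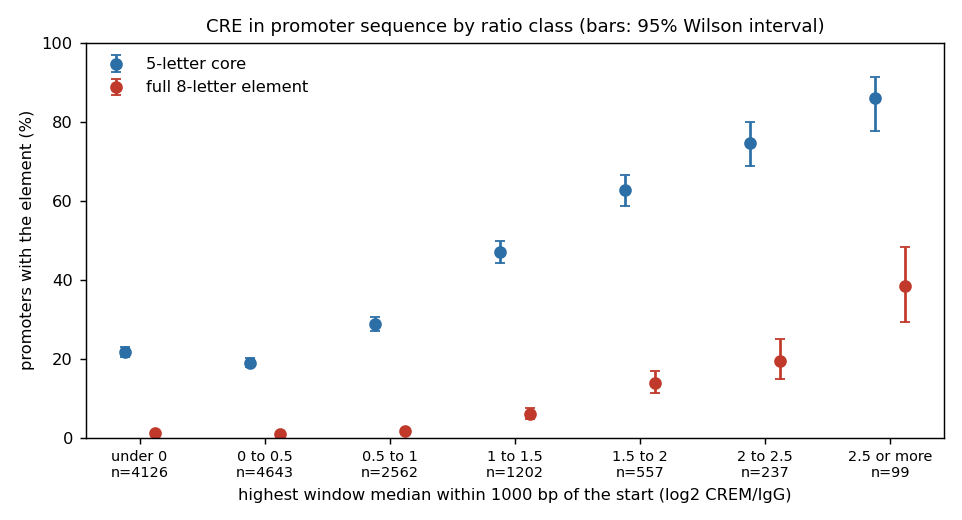
Share of promoters (250 bases before to 50 after the start) that hold the 5-letter CRE core or the full 8-letter element, in percent, by the highest window median within 1000 bp of the start on the log2 CREM/IgG scale, with 95% Wilson intervals and the number of promoters under each class. The full element stood in 0.797% of promoters between 0 and 0.5 and in 38.4% of those at 2.5 or more.

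Read the other way, a region lay beside 82 of the 357 measurable promoters with a full CRE, or 23.0%. It lay beside 175 of 3329 promoters with a core only (5.26%) and beside 69 of 9740 with neither (0.708%), against 326 of 13426 overall (2.43%). A window at 2-fold or more was present at 65.3% of promoters with the full element, at 28.3% of those with a core only and at 9.45% of those with neither. More promoters with a full CRE thus lay between 2-fold and 4-fold than beside a region.

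The CRE contains a CpG, and region promoters held more CpGs than other measurable promoters, with a median of 23.5 against 17.0, at nearly the same GC content (60.0% against 59.0%). The full element was counted within strata for that reason. Among promoters with 10 to 19 CpGs it stood in 18.4% of those beside a region and 2.18% of those without one. Among promoters with 20 to 29 CpGs the shares were 32.8% and 3.16%, and at 30 or more they were 23.5% and 2.91%. Under 10 CpGs it stood in 3 of 23 region promoters and in 0.738% of the others. By GC content the share beside a region ran from 20.6% to 29.8% over 6 strata, and without a region it stayed between 0.758% and 2.84%.

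Other promoter motifs differed less. The GC box GGGCGG, bound by SP1-type factors, stood in 68.4% of region promoters and 54.5% of measurable ones. The ETS motif CCGGAAG stood in 25.2% against 13.8%, the CCAAT box CCAAT in 46.9% against 37.3%, the E-box CACGTG in 13.8% against 9.0%, and the YY1 motif AAGATGG in 9.20% against 6.47%. The TATA box TATAAA was found in 6.44% against 9.77%. The AP-1 motif TGANTCA, a relative of the CRE bound by FOS and JUN proteins, was found in 3.07% against 5.91%. Each was searched on both strands. None of these 7 had a ratio of shares as large as that of the full CRE, and the AP-1 and TATA shares were lower beside a region than over measurable promoters.

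The 8 letters formed by the core and the 3 bases after it showed which forms of the element region promoters held. The palindrome came first, in 82 region promoters (25.2%) and 275 of the 13100 other measurable promoters (2.1%). TGACGCCA stood in 5.83% against 1.09%, TGACGTAG in 5.21% against 0.580%, TGACGTCG in 4.91% against 0.740%, TGACGCAA in 4.60% against 0.634%, and TGACGTAA in 4.60% against 0.588%. TGACGTAG, TGACGTCG and TGACGTAA share their first 6 letters with the palindrome. A promoter can hold more than 1 of these forms.

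Where it was present in a region promoter, the full element sat near the start. The quartiles of its first base were -92, -40 and -7 from the start, and 68 of 82 elements (82.9%) began between -150 and 0. The same share, 82.6%, was found over all 357 measurable promoters with the element, whose median was -49, so this position is not particular to the regions. The middle of the region's highest window lay a median of 322 bp from the element, with quartiles of 215 and 523 bp. The element lay inside the span of the region in 34 of 82 promoters. A used probe covered it in 19, and those probes had a median log2 ratio of -0.83, from -2.43 to 2.25. High windows were therefore mostly measured on DNA beside the element and not on the element itself.

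The regions lay close to transcription starts. Distances were taken from the middle probe of a region's highest window, so a longer region can itself reach or cross the start. A start was placed within 1000 bp of 339 of the 454 regions, or 74.7% (70.5 to 78.5), against 25.6% of all runs of measurable windows, taken by the middle window of each run, and within 500 bp of 241 regions (53.1%) against 15.4%. IgG-side regions were near starts too, with 68.7% within 1000 bp and 59.3% within 500 bp. Within 250 bp of a start lay 44.2% of IgG-side and 24.0% of CREM-side regions. Nearness to a start was thus not particular to the CREM side. Among CREM-side regions the highest window was upstream in 189 cases (41.6%) and downstream in 150 (33.0%), and 81 regions had no start placed within 5000 bp. At 71 of the 339 regions (20.9%, 17.0 to 25.6) the start faced another within 1000 bp in a head-to-head pair. Of runs with a start within 1000 bp, 12% had such a pair (1517 of 12607). Of IgG-side regions with a start that near, 61 of 353 had one (17.3%, 13.7 to 21.6). The CREM-side and IgG-side intervals overlapped, so head-to-head starts were not shown to be particular to the CREM side. Starts were placed only where a probe fell inside the RefSeq promoter window, so these shares are lower limits on nearness to a start, for the regions and for the runs alike.

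The share of windows past 4-fold had 2 shoulders around the start. It was 1.22% from -1000 to -500 bp, 2.25% from -500 to -250 and 1.79% from -250 to -100. It dropped to 0.757% within 100 bp of the start and was 0.802% from 100 to 250 bp, then 1.19% from 250 to 500 and 0.753% from 500 to 1000. From 1000 to 2500 bp downstream it was 0.0797%, and none of 8448 windows from 2500 to 5000 bp downstream passed, with a Wilson upper limit of 0.0455%. IgG-side windows had the reverse form, with 2.01% within 100 bp of the start and 2.34% from 100 to 250 bp, against 0.604% from -500 to -250. From -100 to 250 bp IgG-side windows thus outnumbered CREM-side ones, while from -1000 to -100 and from 500 to 1000 bp the CREM side had the larger share.

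**Figure D2:**
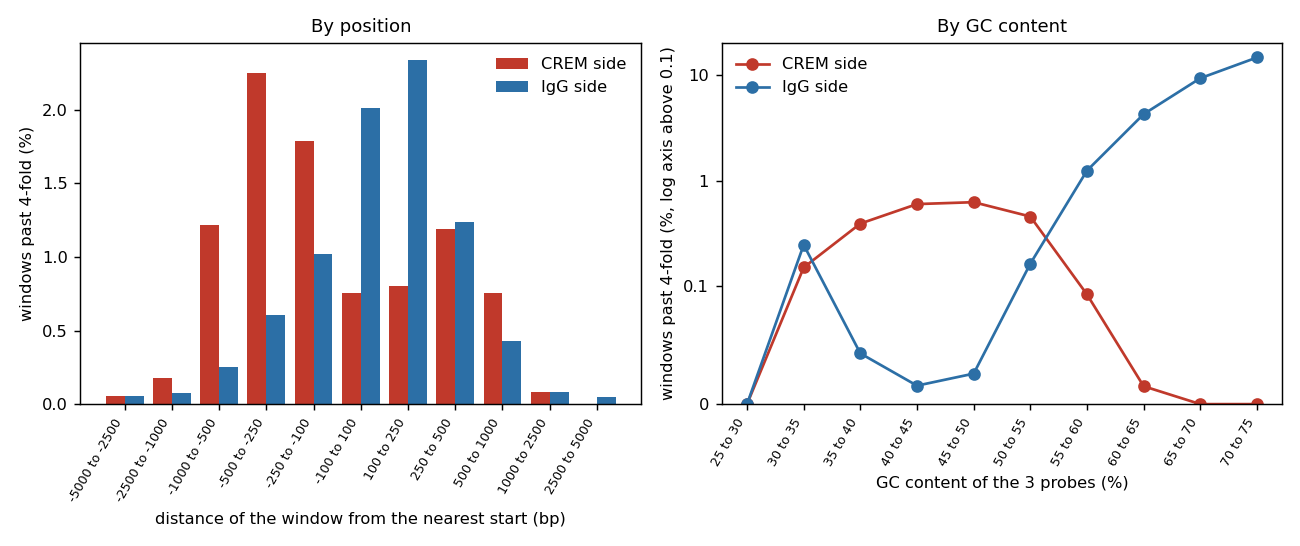
Percent of measurable windows past 4-fold in favour of CREM or of IgG, by distance from the nearest placed start in bp (left, linear axis) and by GC content of the 3 probes in percent (right, log axis above 0.1). CREM-side windows reached 2.25% from -500 to -250 bp and IgG-side windows 2.34% from 100 to 250 bp, and above 60% GC nearly all windows past 4-fold were on the IgG side.

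Probe by probe, the starts beside regions showed a dip between those shoulders. The median log2 ratio of probes was 2.12 from -400 to -300 bp and 2.1 from -300 to -200, then 1.65 from -200 to -100 and 0.09 in the last 100 bp before the start. It was 0.50 in the first 100 bp after the start and 1.64 from 400 to 500 bp, and it was still 0.73 from -1500 to -1400 and 0.72 from 1400 to 1500. Over all measurable starts the median was -0.45 in the last 100 bp before the start, -0.55 in the first 100 bp after it, and 0.24 from -800 to -700, so a dip at the start was present there too. The GC content of probes moved with it, with a median of 53.3% in the last 100 bp before region starts against 38.3% from 1400 to 1500 bp. With the array-wide relation between ratio and GC content subtracted, the region starts had 0.63 in place of 0.09 in that bin. The shoulder from -400 to -300 bp had 2.05 by that measure, so the dip at region starts was shallower after the subtraction and was still present. These starts were chosen for a window at 2 or more, so shoulders near 2 follow in part from that choice. Over all measurable starts the subtracted median was 0.23 from -800 to -700 bp and -0.07 in the last 100 bp before the start.

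**Figure D3:**
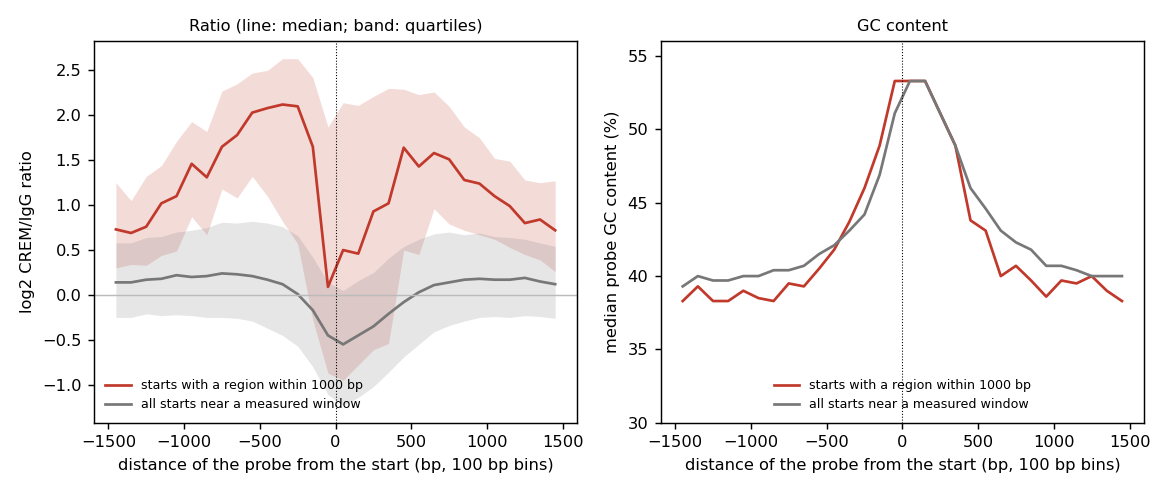
Left, log2 CREM/IgG ratio of probes by distance from the start in 100 bp bins, as the median with the quartiles as a band, for starts with a region within 1000 bp and for all starts near a measured window. Right, the median GC content of the same probes in percent. Region starts stood at 2.12 from -400 to -300 bp and at 0.09 in the last 100 bp before the start, where probe GC content was 53.3%.

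At 13 starts a region had its highest window on each side within 1000 bp, namely Cenpq, D030028A08Rik, Eprs, Fkbp7, Gm34086, Magohb, Nup133, Nup214, Opa3, Pop4, Rpl13a, Tinf2 and Zfyve27, which were listed after their values were seen. Outside the regions the ratio declined with distance. Probes 250 to 500 bp beyond a region had a median of 1.13 on the side of lower coordinates and 1.34 on the other, and probes 1750 to 2000 bp away had 0.47 and 0.53, against 2.15 inside. The raised ratio thus extended past the region ends, which are set by the threshold.

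The regions were short. They held from 3 to 9 probes, with 165 regions of 3 probes, 184 of 4, 66 of 5, 24 of 6, 11 of 7, 2 of 8 and 2 of 9, and spanned 269 to 1572 bp with a median of 581 bp. Their heights, meaning the highest window median in log2, ran from 2.00 to 3.66 with quartiles of 2.12, 2.31 and 2.57. Of the 454, 258 reached 2.25, 132 reached 2.5, 25 reached 3 and 5 reached 3.5. The lowest members were Kif5c at 2.0019, Lrrc14 at 2.0017 and Lmln at 2.0011, and just outside lay windows at Slc45a1 with 1.9997, Mlf1 with 1.9980 and Nup98 with 1.9968. These 6 differ by far less than the spread of repeated control spots, so membership at the boundary is arbitrary.

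Probes inside a region did not all stand high. All 3 probes of the highest window reached 2 in 104 regions, and in 102 regions 1 of them was below 0. Over the whole span, 166 regions held a probe below 0 and 67 held a probe at -1 or less. The lowest probe of a region was the richer in GC, with a median of 51.1% against 41.4% for the highest probe, and this order held in 363 of 454 regions and was reversed in 81. Signals well above background were a condition of entry. The median CREM signal was 4771 (1361 to 49483) and the median IgG signal 1017 (322 to 8917), against 1084 and 1099 over all measurable windows. The IgG signal of the regions was thus close to that of the array as a whole, and the CREM signal set them apart, as the choice by ratio favours.

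**Figure D4:**
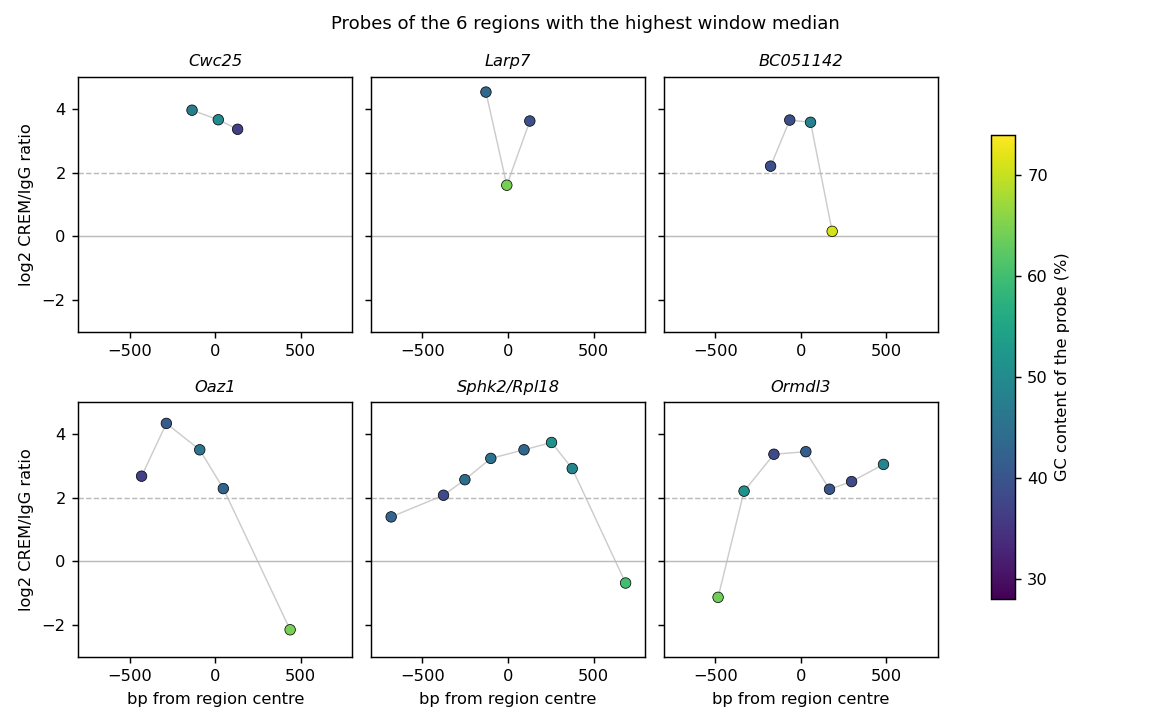
Log2 CREM/IgG ratio of every probe in the 6 regions with the highest window median, by distance from the region centre in bp, with the GC content of the probe as colour and the dashed line at the 4-fold threshold. The Oaz1 region ran from 4.34 down to -2.15 at its most GC-rich probe, while the 3 Cwc25 probes stood between 3.36 and 3.96.

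The 20 highest regions, from 3.66 to 3.08, lay 7 on array 1 and 13 on array 2, and 19 of them had a start within 1000 bp, 15 with the highest window upstream and 4 with it downstream. A full CRE stood in the promoter beside 9 of them. All 20 stayed above 2 with normexp, where the lowest was 2.37, and with the deposited log2 values, where it was 2.44. Positions of regions are given on mm9, the build of the arrays. The highest, chr11:97627958-97628279, had its highest window at -210 bp from the start of Cwc25, a spliceosome-associated factor. Its 3 probes had ratios of 3.96, 3.66 and 3.36, from CREM signals of 13812, 39090 and 8530 against IgG signals of 885, 3069 and 824. All 3 probes stood far above 2, and their order by signal was not their order by ratio. The promoter of Cwc25 was not among those with a full CRE.

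The next region, chr3:127256385-127256695, lay at the facing starts of Larp7, which binds and stabilises the 7SK RNA, and Zgrf1, with its highest window 126 bp downstream of the Zgrf1 start. Its 3 probes read 4.53, 1.60 and 3.62, from CREM signals of 13269, 11405 and 7208 and IgG signals of 567, 3735 and 580. The middle probe was the low one and had 64.4% GC against 43.4% and 39.3% for its neighbours. The Zgrf1 promoter held a full CRE at -149. At BC051142, in chr17:34535462-34535873, the probes read 2.20, 3.65, 3.58 and 0.15. The last of these was the brightest of the region in both channels, with 38542 CREM and 34666 IgG signal, and had 71.1% GC.

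At Oaz1, the antizyme that restrains polyamine synthesis, the region chr10:80288734-80289654 had probes of 2.68, 4.34, 3.51, 2.29 and -2.15. The ratio peaked at the probe with CREM and IgG signals of 6219 and 306, and at the last, GC-rich probe the IgG signal was the higher, 702 against 159. The region chr7:52972227-52973646 lay at the facing starts of Sphk2, a kinase that makes sphingosine 1-phosphate, and Rpl18, a ribosomal protein, with its highest window at -411 bp from the Rpl18 start. Its 8 probes read 1.40, 2.08, 2.57, 3.24, 3.51, 3.74, 2.92 and -0.68, a climb over 6 probes and a steep end. The Rpl18 promoter held a full CRE at -79. The Ormdl3 region, chr11:98448512-98449525, had 7 probes of -1.13, 2.21, 3.37, 3.45, 2.27, 2.51 and 3.05, with 2 maxima and a GC-rich low end of 63.8% GC toward the start site.

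Several of the 20 are described here by what their genes do, a grouping made after their values were seen and not counted against other genes. Magohb, a core protein of the exon junction complex, had 5 probes of 3.95, 2.32, 3.17, 3.06 and 3.17, all above 2, with CREM signals from 7215 to 83622, and its promoter held a full CRE at 12 bases after the start. Snrpa, the U1 snRNP protein A, had 7 probes from 0.74 to 3.22 and a CRE at -113. Pop4, a subunit of RNase P and RNase MRP, had 5 probes of 3.10, 3.19, 2.34, 2.56 and 1.24 and a CRE at -38. In all 3, the lowest probe of the region stayed above 0. Snapc5 had 9 probes from 1.47 to 4.07 over 1403 bp. The region chr11:106077622-106078305, at the facing starts of Ccdc47 and the RNA helicase gene Ddx42, read 0.96, 2.28, 3.12, 3.39 and -2.08, and its last probe had 73.3% GC. Rbm3, a cold-induced RNA-binding protein on the X chromosome, had probes of -1.28, 4.00, 3.11 and 1.5.

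The remaining members of the 20 had varied roles. Rnf20, the ubiquitin ligase for histone H2B, read 2.13, 3.37, 3.43 and 0.55, and Pcnp, a nuclear PEST protein, read -0.38, 3.40, 3.34 and 1.72. Zc3h10, a zinc finger protein, read 2.68, 3.28 and 3.32, the first of these on a probe of 71.1% GC with signals of 45968 and 7149. High GC content did not always go with a low ratio. Arih1, a ubiquitin ligase, read -1.19, 2.07, 3.20 and 3.82 and was the only one of the 20 with a full CRE in a probe of its region, at the probe of 3.20. The region shared by Zwilch, a kinetochore protein, and Rpl4 had 6 probes of 1.27, 2.92, 3.19, 3.28, 2.14 and 2.25. Nup153, of the nuclear basket, read -1.41, 3.32, 3.18, 2.52 and 1.45. Cdadc1, related to cytidine deaminases, read 1.47, 3.21 and 3.14 and had a CRE at -47 in its promoter, and Vps37b, a subunit of ESCRT-I, read -1.19, 2.75, 3.08, 3.63 and 1.49. In each of these 8 regions the lowest probe lay at an end.

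The 5 longest regions by probe number were Snapc5 and Gtpbp10 with 9 probes, Sphk2/Rpl18 and BC048403 with 8, and Ormdl3, the highest of 11 regions with 7. Gtpbp10, a mitochondrial GTP-binding protein, reached 2.67 with 8 of its probes from 1.55 to 2.68 and 1, which covers a full CRE, at -0.83. BC048403 had 8 probes of 2.58, 3.12, 1.87, 2.66, 2.76, 3.43, 2.45 and 0.62. Of the 4 beside RefSeq promoters with a full CRE, Gtpbp10 was the only one with the element after the start, at 5.

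Only 19 regions had the full CRE in the sequence of a probe, or 4.19% (2.70 to 6.44), and 15 of these (3.30%) in a probe of the highest window. Among all runs of measurable windows the share was 0.169% (83 of 49213), counted in the middle window of each run, and among IgG-side regions 5 held it in the highest window (0.973%). The core was present in 111 regions (24.4%), or 93 (20.5%) by the highest window, against 6.37% of runs, while IgG-side regions had 21.2%. Here the core did not set the regions apart from the IgG side, whose probes had far more GC. Runs lay near a start less often than regions did, so the shares were also taken within 500 bp of a start. There the highest windows of 241 regions held the full element in 3.32% and the core in 20.7%. All measurable windows there held them in 0.574% and 11.6%, so both contrasts were smaller than against all runs. Counting promoter and probe sequences together, 99 of 454 regions (21.8%) had a full CRE, 89 of them in the promoter, 10 in a probe only and 9 in both.

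Probes with the element are shown with their ratios, all 6 that lie upstream of a start outside RefSeq gene spans, in the direction printed on the array, with TGACGTCA in capitals.
Nup133: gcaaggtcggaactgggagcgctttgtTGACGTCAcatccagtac
Phc1: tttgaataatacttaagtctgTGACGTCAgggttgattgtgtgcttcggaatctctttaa
Opa3: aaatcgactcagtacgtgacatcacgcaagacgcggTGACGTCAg
Dhx36: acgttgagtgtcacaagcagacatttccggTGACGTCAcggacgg
Ing3: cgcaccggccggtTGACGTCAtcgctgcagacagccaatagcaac
Mgrn1: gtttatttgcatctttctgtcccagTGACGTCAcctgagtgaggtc
The Nup133 probe, chr8:126473255-126473299 on mm9, had a ratio of 2.25 from signals of 3837 and 801, and the Phc1 probe, chr6:122290577-122290636, had 2.63 from 2478 and 397. The Opa3 probe, chr7:19813408-19813452, had 2.09 from 3324 and 775. Phc1 encodes a Polycomb protein and Opa3 a mitochondrial protein. The Dhx36 probe, chr3:62310979-62311023, stood at 0.97 from 955 and 483, below its neighbours at 2.86 and 3.45, and the Ing3 probe, chr6:21899513-21899557, stood at 0.22 from 1296 and 1105. Ing3 is a subunit of the NuA4 histone acetyltransferase complex. The Mgrn1 probe, chr16:4880478-4880523, whose nearest start is that of Ubald1, had the lowest ratio of the 6, 0.15 from 361 and 323. Identical letters thus gave ratios from near 0 to above 2. With normexp all 6 probes stood under 2, at 1.23 (Nup133), 0.92 (Phc1), 1.17 (Opa3), 0.17 (Dhx36), 0.17 (Ing3) and -0.28 (Mgrn1). With the deposited log2 values only the Phc1 probe stood above 2, at 2.32.

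Over all 19 probes, 7 stood at 2 or more and 9 below 0, with a median of 0.15 and a range from -2.38 at Tbrg4 to 3.20 at Arih1. The 7 high ones had a median GC content of 44.9% and the 9 low ones 60.0%. With the GC relation subtracted the median was 0.62. All 266 probes with a full CRE on the arrays had a median of -0.16, at a median GC content of 48.9% against 40.4% over all probes of either array. Most probes with the element thus had no high ratio. Whether high ratios were more frequent among them than among other probes of like GC content was not tested.

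The regions were made of probes of middling GC content, while the IgG side was made of GC-rich ones. The mean GC content of a region's probes had a median of 44.3% over the regions, the highest windows had 43.5%, measurable windows 43.1% and the highest windows of IgG-side regions 64.4%. The share of windows past 4-fold on the CREM side was 0.392% at 35 to 40% GC, 0.599% at 40 to 45%, 0.624% at 45 to 50% and 0.457% at 50 to 55%. It was 0.0932% at 55 to 60%, and at 60 to 65% it was 1 of 6566 windows, or 0.0152%. On the IgG side the share was 1.24% at 55 to 60%, 4.23% at 60 to 65%, 9.24% at 65 to 70% and 14.5% at 70 to 75%. Windows of GC-rich DNA, which includes much of the DNA at the start itself, thus rarely entered the set. By CpG content the CREM-side share was 0.0977% of windows without a CpG, 0.304% with 1 to 2, 0.920% with 3 to 5, 1.02% with 6 to 9 and 0.250% with 10 or more, where the IgG side had 8.02%. Region windows held a median of 4 CpGs against 2 over measurable windows.

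Regions were found on every autosome and on X. The share of windows past the threshold went from 0.168% on chromosome 4 to 0.756% on chromosome 16, and X had 0.358%, with 10 regions. None of 62 measurable windows on Y passed, with a Wilson upper limit of 5.83%. On X the 5 highest were Rbm3 at 3.11, Pja1, a RING ubiquitin ligase, at 2.81, Utp14a, a ribosome biogenesis factor, at 2.66, Gla, the lysosomal alpha-galactosidase, at 2.53 and Wdr13 at 2.20. Utp14a read 2.66, 2.89 and 0.85, and Gla read 2.53, 2.00 and 2.61.

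By the gene names the array gives, 453 of 16936 genes with a measurable window were named for a region, or 2.67%, and 26 names had more than 1 region, with 3 for Trnt1, the enzyme that adds CCA to tRNA ends. The median of a gene's highest window was 0.45 over all genes. Gene groups are described by their counts beside these 2 values. The groups were drawn up with earlier results of these data known and give no independent support. They are incomplete lists, and some genes named above for a region, such as Cwc25, Zwint, Arih1 and Pja1, are on none of them.

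Cholesterol synthesis had the largest share of the groups. Of its 24 measured genes, 6 had a region (25%, Wilson interval 12 to 44.9), and the median of the group was 0.95. The count was 3 with normexp background correction, 3 with the deposited log2 values and 0 at an 8-fold threshold, so the share depended on the processing. The 6 included Idi1, the isopentenyl diphosphate isomerase, at 2.78 with probes of 2.78, 2.84, 2.44 and -0.29. Cyp51, lanosterol demethylase, reached 2.61 with 0.63, 2.91, 2.61 and 1.79, and Pmvk, phosphomevalonate kinase, reached 2.57 with 0.85, 2.31, 2.57, 2.81 and 1.04. In each of them neighbouring probes stood above 2 and at least 1 end was lower. Of 26 sphingolipid genes 3 had a region (11.5%), Sphk2 at 3.51, Ormdl3 at 3.37 and Sptlc1, a subunit of serine palmitoyltransferase, at 2.23, while the group median of 0.46 was near that of all genes. That group was drawn up with Sphk2 and Ormdl3 already known to be high. The Sptlc1 region stood under the threshold, at 1.84, both with normexp and with the deposited values.

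Known cAMP-responsive targets of CREB proteins had a region in 4 of 30 cases (13.3%; group median 0.95). Pcna, the replication clamp, read 1.70, 2.64 and 2.86. Per1, a clock gene, had 2 regions, of which 1 is described here. It read 0.38, 2.07, 2.32, 2.52, 1.62 and 2.46, with its highest window at -1194 bp from the Per1 start. Fosb, an AP-1 subunit, read -1.07, 2.45, 2.59, 0.07, 2.18, 0.99 and 2.31, with its highest window 1080 bp downstream of its start. The Per1 region described and the Fosb region both lay outside the 1000 bp around a start, where most regions were found. Of 26 genes recalled as lowered in testes without Crem, only Cyp51 had a region (3.85%), and the median of that group was 1.03, or near 2-fold. With normexp the highest windows of Cyp51 at 1.42, Fosb at 0.83 and the Per1 region described at 1.83 stood under the threshold, and that of Pcna stood at 2.0. Regions of the Crem group were not counted anew with normexp.

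Groups with general cell functions came next. Nuclear pore and transport genes had a region in 7 of 55 cases (12.7%; median 0.81), led by Nup153 at 3.18, Nup133 at 2.77 and Nup214 at 2.5. Cytosolic ribosomal proteins had one in 9 of 81 (11.1%; 0.78), led by Rpl18, Rpl4 and Rpl24. The listed splicing genes had one in 7 of 68 (10.3%; 0.74), led by Snrpa, Prpf38b and Sf1. Genes of tRNA synthetases and tRNA maturation had one in 6 of 60 (10.0%; 0.61), led by Pop4, Trnt1 and Eprs. The listed ubiquitin-conjugating enzymes and ligases of histones had one in 4 of 41 (9.76%; 0.82), led by Rnf20, Ube2h and Ube2s. In all 5 groups the share was more than 3 times that of all genes. The Rpl18 region is also that of Sphk2, and the Rpl4 region also that of Zwilch, so each is counted in both groups. Of 41 measured kinetochore and spindle checkpoint genes on the list, 3 had one (7.32%; 0.51), and these were Zwilch, Ndc80 and Cenpq. Zwint, whose region reached 2.91, was not on that list. Of the genes named here, Nup214 at 1.13, Prpf38b at 1.26 and Sf1 at 1.96 stood under the threshold with normexp. So did Eprs at 0.91, Ube2s at 1.48 and Ndc80 at 1.39. Sf1 and Ndc80 were under it with the deposited values too, and Cenpq with the deposited values alone.

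Several groups stood near the share of all genes or under it. Respiratory chain genes had a region in 4 of 88 cases (4.55%; 0.67), mitochondrial ribosomal proteins in 3 of 74 (4.05%; 0.63), proteasome genes in 1 of 38 (2.63%; 0.74) and zinc finger genes named Zfp in 6 of 240 (2.5%; 0.52). Of 704 measured olfactory receptor genes, only Olfr215 had one, at 2.16 (0.142%; 0.11). None was found at 73 keratin genes (0.21), at 21 liver genes (0.12), at 17 Sertoli cell genes (0.34) or at 14 Leydig cell genes (0.42), and with so few genes the last 3 counts allow shares up to 15.5%, 18.4% and 21.5%. Gene groups also differ in the GC and CpG content of their promoters, and the part of that in these shares was not tested.

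**Figure D5:**
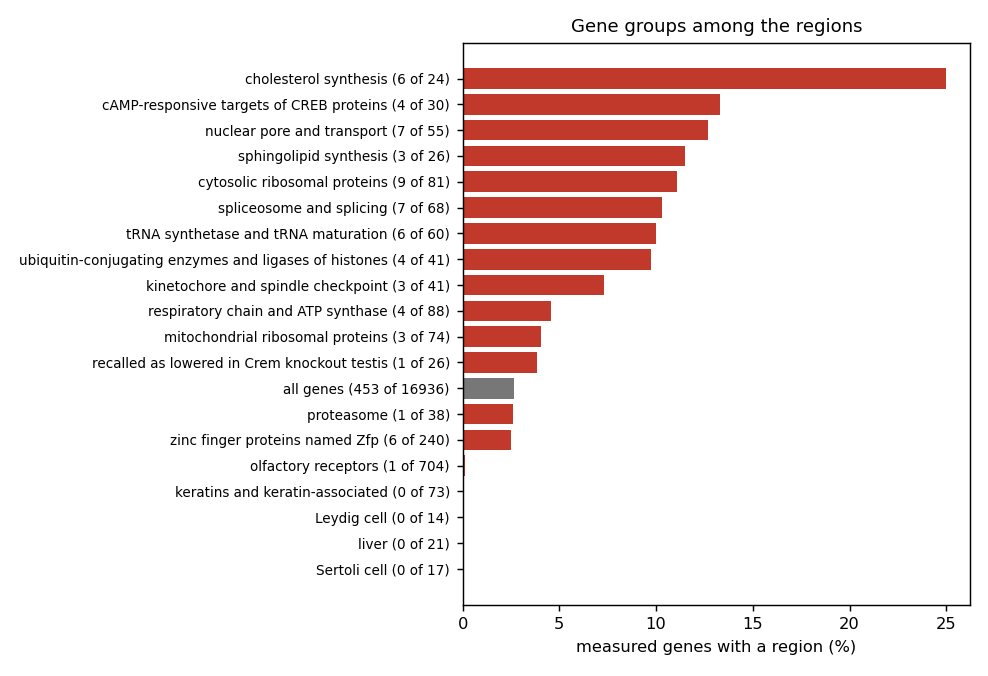
Percent of measured genes in each group that the array names for a region, with the counts beside the group name and all genes in grey. Cholesterol synthesis stood at 25%, all genes at 2.67% and olfactory receptors at 0.142%.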

How the data were processed

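Per the labels, each array compared CREM-precipitated (Cy5) with goat IgG-precipitated (Cy3) chromatin. The authors deposited scanner tables from Feature Extraction 10.7.1.1 with positions on mm9 (NCBI build 37), per the file headers. The authors deposited raw and processed intensity per channel, the latter background-subtracted and dye-normalized by the scanner software, and a log10 ratio of processed Cy5 over Cy3, with flags for background, saturation and outliers. The authors also deposited a table of log2 values. Mean signals less local background followed by limma's loess gave the same values, with a correlation of 1 over 243464 probes on array 1 and 243456 on array 2 and largest differences of 5e-08 and 4.93e-08, so its scale, direction and centring (medians -0.000965 and -0.00103) are known. R 2.10.1 and limma are the tools listed in the submitters' processing notes.

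Here the log2 ratio of processed signals was centred on the array median, without loess, over 236848 and 236759 positioned probes without outlier flags. Wilson intervals (95%) cover counting error only. Of 17831 gene names on the arrays, 13983 were current in RefSeq, 2628 were updated by synonym and 1220 kept. Of 32851 RefSeq promoters 15275 were placed by a probe, and where several probes matched, 99.7% agreed within 5 bp.

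The members, gene groups and motifs were chosen with earlier results of these data known. Regions named are the 20 highest, those with a full CRE in a probe (at most 20), the 5 longest, the 3 next to the threshold on each side, at most 3 per gene group and at most 5 on X or Y; others are said to have been chosen after their values were seen, and promoters printed beyond these were chosen that way too. Python 3.11.15 (numpy 2.4.6, pandas 2.3.3, statsmodels 0.14.6, matplotlib 3.10.9) and R 4.3.3 with limma 3.58.1 were used. The window step was tested on simulated data and the motif search on short sequences of known content. With 1 hybridisation per array no test across conditions was made. Alternatives were normexp with an offset of 50, loess, no centring, the deposited log2 values, GC trend removal, other thresholds, window rules and filters; the alternatives for promoter elements and gene groups were added after seeing the data.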

Additional observations from a re-analysis of the deposited data

Results flagged for a closer look

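Some probes carry no genome position in the array annotation and could enter no window. On array 1, 4 of 227 such probes that were well above background in both channels had a log2 ratio of 2 or more, or 1.76% (95% Wilson interval 0.687 to 4.44), with a highest value of 2.41, against 1020 of 183114 positioned probes, or 0.557%. They were picked out because the regions do not use these data. The IgG side also had 4 such probes on array 1. On array 2 none of 343 reached 2 on the CREM side, where the highest was 1.55, and 11 passed on the IgG side. No gene is given for them here.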

How the results depend on the processing

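The number of regions on arrays 1 and 2 (192 and 262) followed the threshold and the window rule. It was 477 and 612 at 3-fold, 7 and 18 at 8-fold, 56 and 81 where the lowest of the 3 probes had to pass, 62 and 89 with windows of 5 probes, 447 and 559 with the background filter in the CREM channel alone, 449 and 561 with no such filter and 127 on each array with the deposited log2 values. Normexp gave 115 on array 1. The share of region promoters with a full CRE (25.2%) was 20% at 3-fold, 40.9% at 8-fold, 31.1% with the deposited values and 35.6% by the lowest probe, and stayed above the 2.66% of measurable promoters in all of these. The share with the core (78.8%) was 71.2% at 3-fold, 100% at 8-fold, 83.2% with the deposited values, 72.4% with the filter in the CREM channel alone and 72.5% without it. The core in probes (24.4%) was 44.0% at 8-fold, 19.6% by the mean, 16.8% by the lowest probe and 32.5% with windows of 5. The median over regions of mean probe GC content (44.3%) was 45.4% with the GC trend removed, 43.8% at 3-fold, 46.0% at 8-fold, 41.5% by the lowest probe, 42.1% by the mean, 45.7% with windows of 5 and 42.5% with either looser filter. The smaller sets follow from stricter rules, and the cause of the other shifts was not tested. Of 74 named regions, 27 stood under 2 with normexp (0.74 to 3.51), 19 with the deposited values (1.38 to 3.44), 4 with the GC trend removed (1.86 to 3.89) and 0 with loess or no centring, and none changed sign. Cholesterol genes with a region numbered 3 in place of 6 with normexp and with the deposited values, and 0 at 8-fold. No paired analysis was possible because each array had 1 hybridisation and the result comes from no test. The precision is limited by the single hybridisation and, for dim probes, by the signal over background.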
